A study of Mus musculus with 9 samples.

Results

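The phospholipase C gene Plcg2 was examined together with 8 other genes of phosphoinositide signaling: Plcg1, Plcb3, Pik3ca, Pik3cb, Pik3cd, Pik3r1, Inpp5d and Inpp4b. They are 9 of the 16399 genes listed in the data, and they were found by gene symbol. They had been proposed with results of these same libraries known, so the levels and differences of these 9 genes are given as a description, with no p for any of them, and counts of those past a threshold stand beside the share over all tested genes. Expression was measured in 3 groups of the mouse colon carcinoma line MC38, with 3 replicate libraries in each. MC38-P is the parental line carrying GFP and luciferase. MC38-LM3a and MC38-LM3b are liver-metastatic derivatives of it, which the study describes as independently derived. The derivatives came from repeated rounds of injection into the spleen of C57BL/6 mice and recovery of cells from liver metastases, and all groups were given as epithelial cells of the colon. Each derivative is represented by a single selected line, so a difference from MC38-P describes that line.

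Phosphoinositides are membrane lipids whose inositol ring is phosphorylated and dephosphorylated at several positions. Phospholipase C enzymes cleave phosphatidylinositol bisphosphate into inositol trisphosphate, which releases calcium from internal stores, and diacylglycerol, which recruits protein kinase C and Ras activators. Phosphoinositide 3-kinases (PI3K) phosphorylate the same lipid to phosphatidylinositol trisphosphate (PIP3), which recruits the AKT kinases, and inositol phosphatases remove these marks. PLCγ2, the product of Plcg2, is best known from B cells and myeloid cells, whereas PLCγ1, from Plcg1, is found in most cell types.

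The start region of Plcg2 is shown because this was the member with the largest difference between MC38-P and both derivatives. It is set beside that of Plcg1, its closest relative among the members, and that of Inpp4b, which lies on the same chromosome and differed in the opposite direction. Each sequence is 300 bases long, most of them before a RefSeq transcription start in build GRCm38.p6, and all lie on the plus strand. They cover chr8:117498025-117498324 for Plcg2, chr2:160731060-160731359 for Plcg1 and chr8:81342312-81342611 for Inpp4b. Capitals mark a GC box, searched as GGGCGG, which reads CCGCCC on the other strand, and an E-box, searched as CACGTG.
Plcg2: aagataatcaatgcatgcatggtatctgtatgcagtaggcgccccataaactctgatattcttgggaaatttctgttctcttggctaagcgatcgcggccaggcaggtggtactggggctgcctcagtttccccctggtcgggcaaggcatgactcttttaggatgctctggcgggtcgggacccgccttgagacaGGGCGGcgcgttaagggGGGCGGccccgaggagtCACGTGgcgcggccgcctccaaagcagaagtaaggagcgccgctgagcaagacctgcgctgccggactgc
Plcg1: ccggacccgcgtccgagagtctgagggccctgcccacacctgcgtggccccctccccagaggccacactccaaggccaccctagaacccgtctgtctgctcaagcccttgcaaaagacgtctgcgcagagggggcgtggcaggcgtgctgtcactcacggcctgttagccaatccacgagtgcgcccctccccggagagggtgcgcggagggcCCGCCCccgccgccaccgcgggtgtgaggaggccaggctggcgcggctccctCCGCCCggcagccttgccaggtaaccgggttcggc
Inpp4b: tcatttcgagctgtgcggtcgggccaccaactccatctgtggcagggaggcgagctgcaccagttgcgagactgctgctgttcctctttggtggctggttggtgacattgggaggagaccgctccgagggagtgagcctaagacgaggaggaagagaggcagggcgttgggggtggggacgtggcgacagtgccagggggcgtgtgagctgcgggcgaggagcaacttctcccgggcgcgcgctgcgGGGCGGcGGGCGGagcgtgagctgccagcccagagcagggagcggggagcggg

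All 9 genes matched the RefSeq table, with 12 start regions in all, since Pik3cd had 3 starts and Pik3r1 had 2. The Plcg2 region had a GC content of 60.0%, 21 CpG dinucleotides, 2 GC boxes and 1 E-box, and it was the only one of the 12 regions that held the E-box letters. Among all 32851 start regions of the same length, 35.7% held a GC box and 7.15% an E-box on either strand. The letters TGTGGT, the core of the RUNX motif, were in 0 of the 12 regions and in 16.8% of all regions. The TATA box letters TATAAA were in 1 region of Pik3r1 and in 13.6% of all regions. A match of letters is only a description, and a missing match says only that the letters are not in this window.

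Values are TPM, which divide the reads of a gene by its transcript length and by the library total, so levels can be set side by side between genes. Differences were taken on log2(TPM + 1), a scale that understates the change of genes with low values, and a single limma model tested the 11287 genes that reached 1 TPM in 3 or more libraries. Depth is unknown, because TPM carry no counts. The study calls the replicates biological and does not say whether each came from a culture of its own, so p-values measure the spread between these libraries. Between 10875 and 11218 genes per library reached 1 TPM.

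Within a group, libraries differed along transcript length. Over the 11096 genes with a known length, the deviation of a library from the other replicates of its group was correlated with length. The Spearman correlation was 0.54, 0.43 and -0.65 in MC38-P replicates 1, 2 and 3. It was -0.58, -0.54 and 0.67 in MC38-LM3a replicates 1, 2 and 3, and between -0.02 and 0.02 in the MC38-LM3b libraries. The members have long transcripts, with a median of 5107 bases against 3144 bases over the tested genes. All 9 members were above their own group in MC38-LM3a replicate 3, by a median of 0.47 on the log2 scale, and in MC38-P replicate 3 the median was -0.34. All 9 were also above in MC38-P replicate 2, by a median of 0.07, and 7 in MC38-P replicate 1, by 0.25. In MC38-LM3a replicates 1 and 2, 1 and 0 members were above. Values corrected for GC content and length in each library are therefore given beside the others. The median difference of all tested genes was 0.21 for MC38-LM3b against MC38-P and -0.00 for MC38-LM3a against MC38-P, and 0.01 for both after the correction.

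Plcg2 was lower in both liver-metastatic derivatives. Its level in MC38-P was 16.26, 18.05 and 14.81 TPM in the 3 libraries, a mean of 16.4 ± 1.62 TPM (SD, n = 3). In MC38-LM3a it was 4.5, 4.16 and 5.19 TPM, a mean of 4.62 ± 0.525 TPM (SD, n = 3). In MC38-LM3b it was 5.22, 4.67 and 5.24 TPM, a mean of 5.04 ± 0.323 TPM (SD, n = 3). Every library of MC38-P was above every library of both derivatives, and the ranges of the derivatives overlapped. The ratio of the MC38-P mean to that of MC38-LM3a was 3.55, and to that of MC38-LM3b 3.25.

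The log2 difference of Plcg2 from MC38-P was -1.63 (SE 0.12) in MC38-LM3a and -1.52 (SE 0.12) in MC38-LM3b. Between the derivatives it was 0.11 (SE 0.12). After the correction for GC content and length the differences were -1.57 (SE 0.075) in MC38-LM3a and -1.74 (SE 0.075) in MC38-LM3b, and -0.17 (SE 0.075) between the derivatives. Both differences from MC38-P share the same MC38-P libraries. These are the contrasts with which the gene was proposed, so they are no evidence beyond it.

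**Figure D1:**
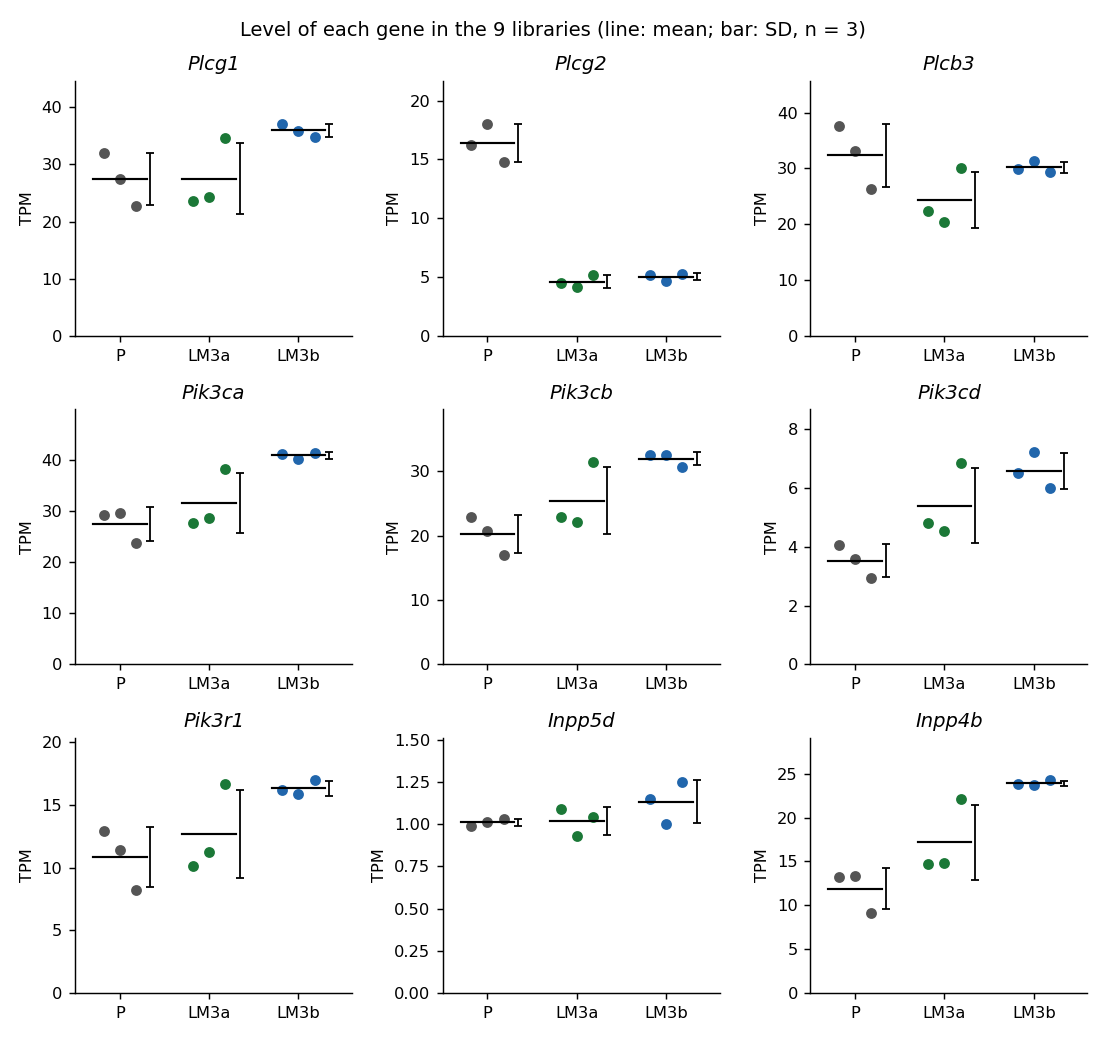
TPM of each of the 9 members in each library, grouped by MC38-P, MC38-LM3a and MC38-LM3b, with points for libraries and the mean and SD of each group. Plcg2 lies between 14.81 and 18.05 TPM in MC38-P and between 4.16 and 5.24 TPM in the derivatives.

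Relative to the median of the tested genes in each library, Plcg2 kept this pattern. Its ratio to the library median was 0.651, 0.753 and 0.715 in MC38-P, against 0.205, 0.193 and 0.198 in MC38-LM3a and 0.189, 0.173 and 0.194 in MC38-LM3b. The mean ratio of MC38-P was thus 3.56 times that of MC38-LM3a and 3.81 times that of MC38-LM3b. Among the tested genes Plcg2 stood on average at percentile 40.7 in the parental line, and at 16.4 and 14.9 in MC38-LM3a and MC38-LM3b.

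Plcg1, the isoform that acts downstream of growth factor and T cell receptors, did not show the pattern of Plcg2. Its level was 31.94, 27.49 and 22.81 TPM in MC38-P, 23.55, 24.26 and 34.63 TPM in MC38-LM3a, and 37.15, 35.85 and 34.85 TPM in MC38-LM3b. The ranges of MC38-LM3a and MC38-P overlapped, and the MC38-LM3b libraries were above both. The log2 difference from MC38-P was -0.01 (SE 0.15) in MC38-LM3a and 0.39 (SE 0.15) in MC38-LM3b, and 0.06 (SE 0.057) and 0.15 (SE 0.057) after the correction. Plcg1 overlaps the gene Zhx3 in the annotation, whose mean was 3.56 TPM in the parental line and 4.66 and 6.46 TPM in MC38-LM3a and MC38-LM3b. Whether reads were counted by strand is not given in the sources used here, so reads of such a pair may not be separated.

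Plcb3, a phospholipase C activated by G protein-coupled receptors, was 37.61, 33.15 and 26.37 TPM in MC38-P. It was 22.39, 20.49 and 30.06 TPM in MC38-LM3a and 29.88, 31.34 and 29.42 TPM in MC38-LM3b. The ranges of the groups overlapped in TPM, but relative to the library median all 6 derivative libraries were below MC38-P, with means of 1.39, 1.04 and 1.11 for MC38-P, MC38-LM3a and MC38-LM3b. The log2 difference from MC38-P was -0.40 (SE 0.15) and -0.08 (SE 0.15) in the derivatives, and -0.33 (SE 0.060) and -0.32 (SE 0.060) after the correction.

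Within the phospholipase C members the balance differed between the lines. The ratio of Plcg1 to Plcg2 was 1.68 ± 0.250 (SD, n = 3) in MC38-P, 5.91 ± 0.723 (SD, n = 3) in MC38-LM3a and 7.15 ± 0.514 (SD, n = 3) in MC38-LM3b. Plcg2 made up 21.7% of the summed TPM of the 3 phospholipase genes in the parental line, but 8.28% and 7.09% in MC38-LM3a and MC38-LM3b. The lowest share in MC38-P, 18.9%, was above the highest share in the derivatives, 8.92%. These ratios are taken within a library, so a scaling of the whole library leaves them as they are. The deviation along transcript length is not removed in this way, as the genes differ in length (5107 bases for Plcg1, 4298 for Plcg2). Ratios and shares here and below were not corrected for GC content and length.

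**Figure D2:**
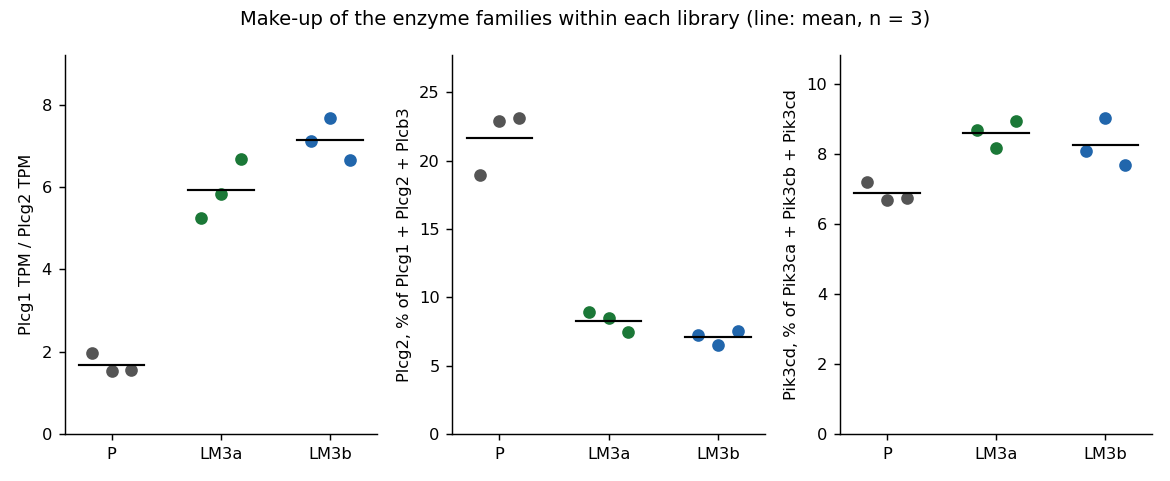
Ratio of Plcg1 to Plcg2, percent of Plcg2 among the 3 phospholipases and percent of Pik3cd among the 3 catalytic subunits, by group (points for libraries, lines for means). The ratio of Plcg1 to Plcg2 lies between 1.52 and 1.96 in MC38-P and between 5.23 and 7.68 in the derivatives, and the share of Pik3cd among the 3 catalytic subunits lies between 6.67% and 7.20% in MC38-P and between 7.67% and 9.03% in the derivatives.

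Among the catalytic subunits of class I PI3K, Pik3ca encodes p110α, Pik3cb p110β and Pik3cd p110δ, the last known mainly from leukocytes. Pik3cd was the lowest of them, at 4.05, 3.6 and 2.94 TPM in MC38-P, 4.79, 4.52 and 6.85 TPM in MC38-LM3a, and 6.49, 7.22 and 6 TPM in MC38-LM3b. All 6 derivative libraries were above all MC38-P libraries. Its log2 difference from MC38-P was 0.48 (SE 0.16) in MC38-LM3a and 0.75 (SE 0.16) in MC38-LM3b, and 0.57 (SE 0.077) and 0.49 (SE 0.077) after the correction.

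Pik3ca was 29.23, 29.58 and 23.69 TPM in MC38-P, 27.63, 28.75 and 38.35 TPM in MC38-LM3a, and 41.18, 40.15 and 41.44 TPM in MC38-LM3b. The MC38-LM3b libraries were above all others, and MC38-LM3a overlapped MC38-P. Pik3cb was 22.97, 20.81 and 17.02 TPM in MC38-P, 22.85, 22.06 and 31.43 TPM in MC38-LM3a, and 32.53, 32.6 and 30.75 TPM in MC38-LM3b. It separated MC38-LM3b from MC38-P, whereas MC38-LM3a overlapped both other groups. The log2 differences from MC38-P in MC38-LM3a and MC38-LM3b were 0.18 and 0.56 (SE 0.13) for Pik3ca, and 0.31 and 0.64 (SE 0.14) for Pik3cb. After the correction the values of the derivatives came close to each other, at 0.28 and 0.28 (SE 0.050) for Pik3ca and 0.37 and 0.37 (SE 0.044) for Pik3cb. The annotation also places Kcnmb3 over Pik3ca, but its mean was at most 0.28 TPM in any group.

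Pik3cd made up 6.87 ± 0.290% (SD, n = 3) of the summed TPM of the 3 catalytic genes in MC38-P, 8.59 ± 0.390% (SD, n = 3) in MC38-LM3a and 8.26 ± 0.694% (SD, n = 3) in MC38-LM3b. The shares of Pik3ca were 53.7%, 50.7% and 51.5%, and those of Pik3cb 39.5%, 40.7% and 40.2%, in the same order.

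Pik3r1 encodes p85α and shorter forms, the regulatory subunits that stabilize p110 and hold it inactive until a receptor binds. It was 12.95, 11.41 and 8.21 TPM in MC38-P, 10.11, 11.23 and 16.68 TPM in MC38-LM3a, and 16.17, 15.85 and 16.96 TPM in MC38-LM3b. The MC38-LM3b libraries were above MC38-P, and MC38-LM3a reached from the MC38-P range into that of MC38-LM3b. The log2 difference from MC38-P was 0.20 (SE 0.19) in MC38-LM3a and 0.57 (SE 0.19) in MC38-LM3b, and 0.27 (SE 0.072) and 0.29 (SE 0.072) after the correction. Its ratio to the summed catalytic subunits was on average 0.210 in MC38-P and 0.201 and 0.206 in MC38-LM3a and MC38-LM3b, with overlapping ranges.

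Inpp4b, a phosphatase that removes the 4-phosphate from phosphatidylinositol bisphosphate formed downstream of PI3K, had the largest positive difference of the 9 genes in MC38-LM3b. Its level was 13.19, 13.29 and 9.16 TPM in MC38-P, 14.65, 14.76 and 22.09 TPM in MC38-LM3a, and 23.81, 23.67 and 24.23 TPM in MC38-LM3b. The 3 groups did not overlap and stood in that order. The log2 difference from MC38-P was 0.49 (SE 0.17) in MC38-LM3a and 0.97 (SE 0.17) in MC38-LM3b, and 0.56 (SE 0.055) and 0.68 (SE 0.055) after the correction.

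Inpp5d encodes SHIP1, a 5-phosphatase that acts on PIP3 and is known mainly from blood cells. It was at the edge of the filter, at 0.99, 1.01 and 1.03 TPM in MC38-P, 1.09, 0.93 and 1.04 TPM in MC38-LM3a, and 1.15, 1 and 1.25 TPM in MC38-LM3b. The ranges overlapped, and the log2 differences from MC38-P were 0.01 and 0.08 (SE 0.11), or 0.07 and -0.16 (SE 0.14) after the correction.

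**Figure D3:**
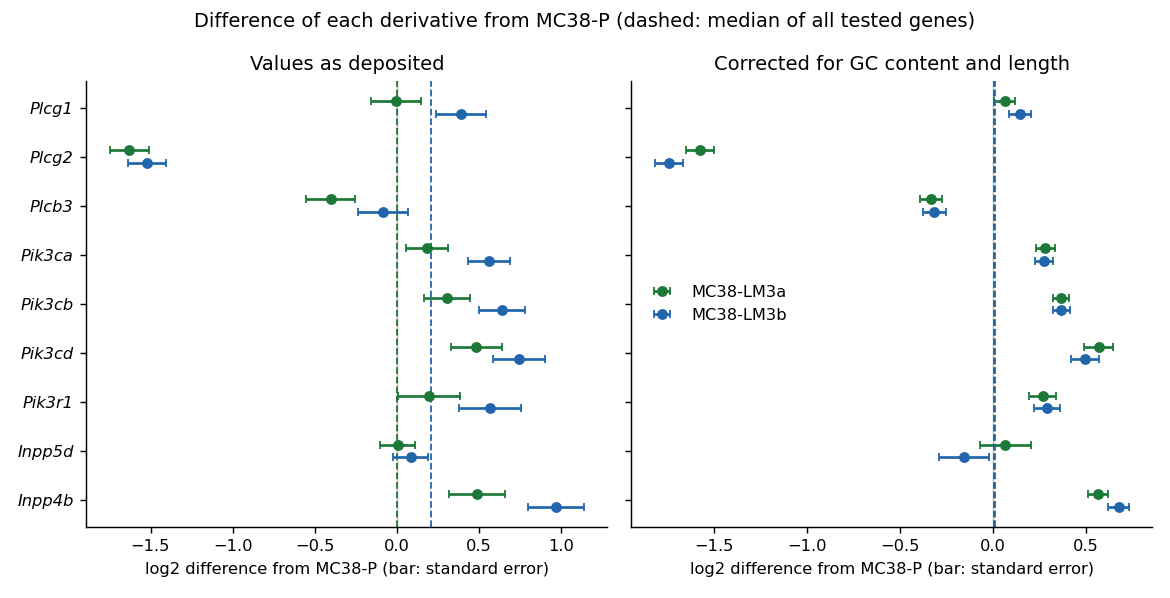
Log2 differences of the 9 members from MC38-P in each derivative (points) with standard errors (bars), as deposited and corrected for GC content and transcript length, with dashed lines at the median of all tested genes. Plcg2 lies between -1.74 and -1.52 against MC38-P, and the other members lie between -0.40 and 0.97.

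All 9 genes passed the filter on low values. At an adjusted p under 0.05, 1 member (Pik3cd) was higher and 1 (Plcg2) lower in MC38-LM3a, where 14.1% of all tested genes were higher and 13.8% lower. The call of Pik3cd was lost without a filter on low values, with the libraries of these groups only, and without any 1 of MC38-P replicates 2 and 3, MC38-LM3a replicates 1 and 3 and the MC38-LM3b libraries. It was also lost with a block on replicate number. Without replicate 3 of MC38-P and of MC38-LM3a together, Inpp4b passed as higher in its place. In MC38-LM3b, 5 members (Pik3ca, Pik3cb, Pik3cd, Pik3r1 and Inpp4b) were higher and 1 (Plcg2) lower, where 35.6% of all tested genes were higher and 11.2% lower. Of these, the call of Pik3r1 was lost without a filter on low values, with the block, and without any 1 of MC38-P replicates 2 and 3 and the MC38-LM3b libraries. Only Plcg2 also had an absolute log2 difference above 1, the size that 1.50% of tested genes reached downward in MC38-LM3a and 1.18% in MC38-LM3b. Ordered by size, it was number 39 of 169 such genes in MC38-LM3a and 40 of 133 in MC38-LM3b. The members were proposed from these contrasts, so nothing is read from these counts.

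The median log2 difference of the members was 0.18 for MC38-LM3a and 0.56 for MC38-LM3b, beside -0.00 and 0.21 over all tested genes. After the correction the member medians were 0.27 and 0.28, beside 0.01 and 0.01. With the correction, 5 members were higher and 2 lower in MC38-LM3a, beside 27.0% and 25.3% of all genes, and 6 were higher and 2 lower in MC38-LM3b, beside 29.6% and 28.9%. The gene added on the lower side was Plcb3. By overlap of the corrected values, the same numbers of members were separate from MC38-P, 5 above and 2 below in MC38-LM3a, beside 29.1% and 27.2% of all genes, and 6 above and 2 below in MC38-LM3b, beside 34.5% and 32.9%.

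In TPM, 2 members were above MC38-P without overlap in MC38-LM3a (Pik3cd and Inpp4b) and 1 below (Plcg2), beside 20.3% and 15.9% of tested genes. In MC38-LM3b, 6 were above and 1 below, beside 51.3% and 15.4%. Between MC38-LM3b and MC38-LM3a, Plcg1, Pik3ca and Inpp4b were above without overlap and 0 members below, beside 38.4% and 3.60% of tested genes.

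No member passed between the derivatives by limma, where 0.0354% of tested genes were higher in MC38-LM3b and 0.0177% lower. With an absolute log2 difference above 1 as well, the shares of tested genes were 0.0266% and 0.00%. At an unadjusted p under 0.05, 4 members were higher in MC38-LM3b and 0 lower, beside 35.5% and 2.58% of all tested genes. Without MC38-LM3a replicate 3, 7 members passed as higher in MC38-LM3b, where 52.2% of all genes did, and with the correction and all libraries 0 did, beside 0.0901% of genes higher and 0.117% lower. In corrected values, 1 member (Inpp4b) was above MC38-LM3a without overlap and 1 (Plcg2) below, beside 12.3% and 14.6% of genes. The part of transcript length in this difference was not tested beyond that correction.

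The order of the members by level was the same in both derivatives and differed from that of MC38-P. In MC38-P it ran from Plcb3 through Pik3ca, Plcg1, Pik3cb, Plcg2, Inpp4b, Pik3r1 and Pik3cd to Inpp5d. In MC38-LM3a and MC38-LM3b it ran from Pik3ca through Plcg1, Pik3cb, Plcb3, Inpp4b, Pik3r1, Pik3cd and Plcg2 to Inpp5d. Plcg2 thus stood in place 5 of 9 in MC38-P and 8 of 9 in the derivatives, below Pik3cd in all 6 derivative libraries.

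Within single libraries, neighbours kept this order in all 3 libraries of each group, except Pik3ca above Plcg1 in MC38-P, which held in 2. Ranges over the libraries of a group were separate for only some neighbours. In MC38-P the ranges were separate for Plcg2 and Inpp4b, Pik3r1 and Pik3cd, and Pik3cd and Inpp5d. In MC38-LM3a they were separate for Pik3r1 and Pik3cd and for Plcg2 and Inpp5d. In MC38-LM3b Pik3cb and Plcb3 were the only neighbours whose ranges overlapped.

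The other genes of the pathway were taken from 9 lists of 123 genes without the members, of which 117 were in the files and 93 were tested. In MC38-LM3a, 9 genes rose and 10 fell, which is 9.68% and 10.8% of those tested, and 74 did not pass. Over all tested genes these shares were 14.1% and 13.8%. In MC38-LM3b, 52 rose and 5 fell, or 55.9% and 5.38%, beside 35.6% and 11.2% of all tested genes, and 36 did not pass. With 1 library left out, 30 to 63 rose and 2 to 6 fell in MC38-LM3b, and 4 to 16 fell in MC38-LM3a. The median log2 difference over the lists was 0.09 and 0.37, and 0.13 and 0.12 after the correction, with which 40 rose and 14 fell in MC38-LM3a and 42 rose and 14 fell in MC38-LM3b. The corrected shares over all genes were 27.0% and 25.3% for MC38-LM3a, and 29.6% and 28.9% for MC38-LM3b. Corrected counts are given below for each list, since the correction moved most of them. Adjusted p-values below are from limma with Benjamini-Hochberg adjustment over the 11287 genes.

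**Figure D4:**
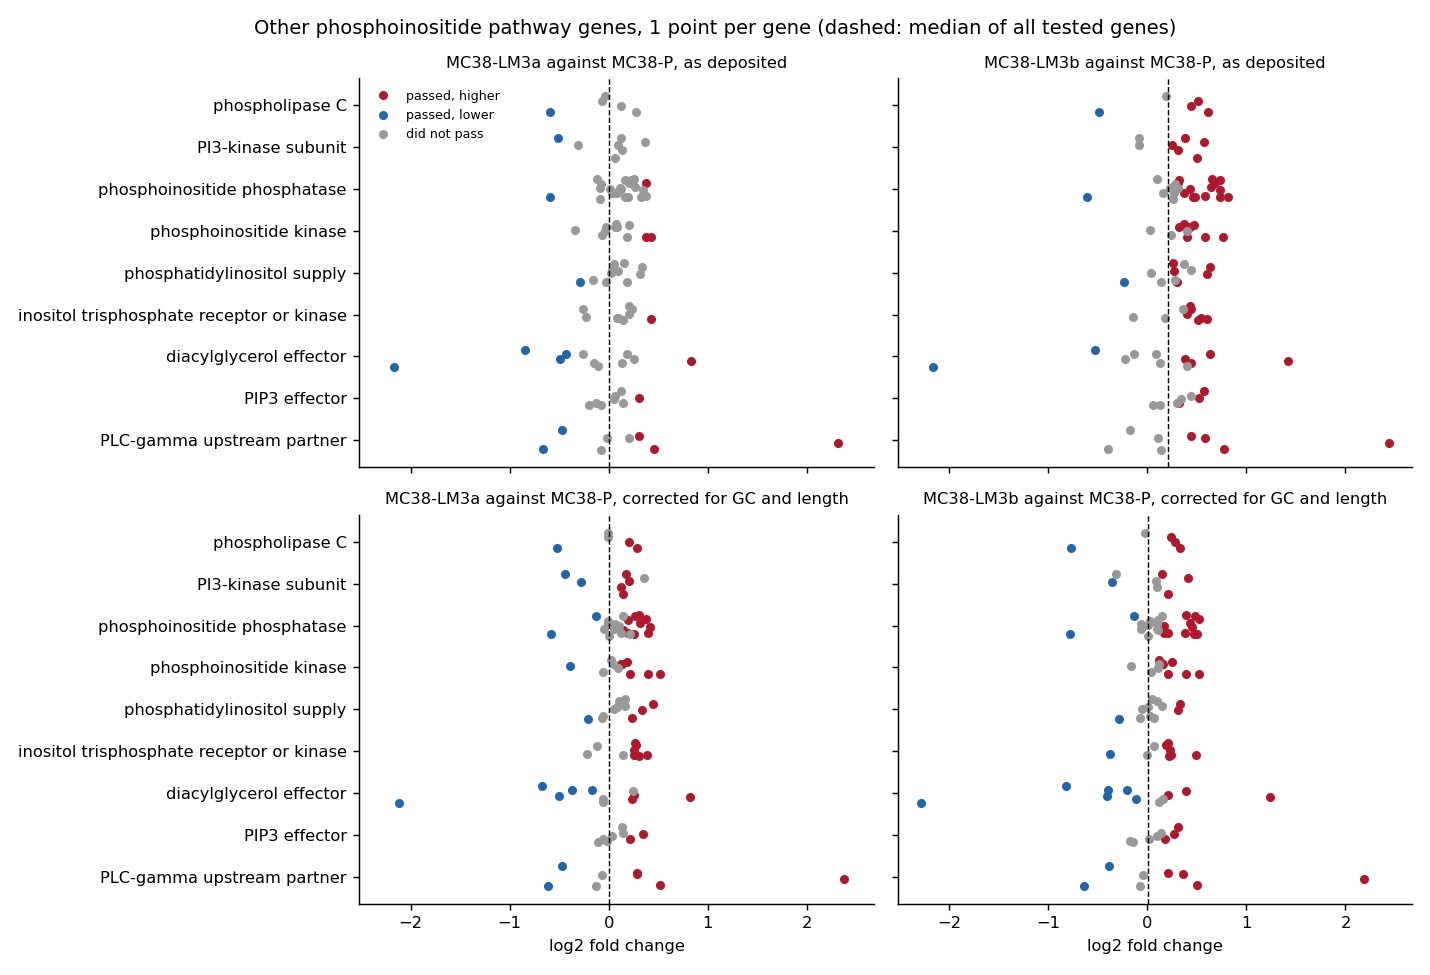
Log2 differences from MC38-P of the tested genes of the 9 phosphoinositide pathway lists in both derivatives, without the members, as deposited (top) and corrected for GC content and length (bottom), coloured by whether a gene passed, with dashed lines at the median of all tested genes. As deposited, Grap2 is at 2.32 and 2.44, Rasgrp2 at -2.17 in both, and Prkcb at 0.83 and 1.42.

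Of the other phospholipase C genes, 5 were tested. Plcb1, a G protein-coupled isoform, fell by 0.60 on the log2 scale in MC38-LM3a (adjusted p = 0.0143) and by 0.49 in MC38-LM3b (adjusted p = 0.0234). Its mean was 1.45 TPM in the parental line and 0.61 and 0.73 TPM in the derivatives. No derivative library was above 0.92 TPM, so Plcb1 passed the filter on low values only through MC38-P. Its p-values are therefore a description. Plcb4 rose by 0.61 in MC38-LM3b (adjusted p = 0.00609), as did 2 others, and no other phospholipase C gene passed in MC38-LM3a. The calls of Plcb1 were lost without MC38-LM3a replicate 1 or 2, and without MC38-LM3b replicate 2 or 3, each in the comparison of its own line. With the correction 2 of the 5 rose and 1 fell in MC38-LM3a, and 3 rose and 1 fell in MC38-LM3b.

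The adaptors and kinases that act on PLCγ included the largest rise of all lists. Grap2 encodes GADS, an adaptor that links LAT and SLP-76 in T cells. It was 0.11, 0.09 and 0.06 TPM in MC38-P, 4.27, 3.94 and 5.09 TPM in MC38-LM3a, and 4.84, 4.9 and 4.95 TPM in MC38-LM3b, so that it was near 0 in the parental line and present in every derivative library. The log2 fold change was 2.32 (SE 0.11, adjusted p = 3.18e-07) in MC38-LM3a and 2.44 (adjusted p = 1.72e-07) in MC38-LM3b. Its partners Lat and Lcp2 reached at most 0.09 TPM in any library, and the kinases Syk and Btk at most 0.03 and 0.04 TPM.

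In all, 8 of the 15 upstream partners were tested, and 3 rose and 2 fell in MC38-LM3a, while 4 rose and 0 fell in MC38-LM3b, and with the correction 4 rose and 2 fell in each. Gab1, a docking protein for PI3K and PLCγ, fell by 0.66 in MC38-LM3a (adjusted p = 0.015), and its difference of -0.40 in MC38-LM3b did not pass (adjusted p = 0.076). After the correction Gab1 fell in both, by 0.61 and by 0.64 (adjusted p = 5.22e-05 for MC38-LM3b), and its call in MC38-LM3a as deposited was lost without replicate 1 or 2 of MC38-P or of MC38-LM3a. Blnk, the adaptor that brings PLCγ2 to BTK in B cells, had a mean of 71.1 TPM in the parental line and of 70.2 and 76.7 TPM in the derivatives. It did not pass in either derivative, with log2 differences of -0.02 and 0.11, or -0.07 and -0.04 after the correction, and it is named here after its values were seen, as are Lat, Lcp2, Syk and Btk.

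Downstream of phospholipase C, the proteins that bind diacylglycerol moved in both directions. Rasgrp2 encodes an exchange factor for Rap that is controlled by calcium and diacylglycerol. It was 10.8, 8.05 and 6.88 TPM in MC38-P, 2, 0.45 and 1.13 TPM in MC38-LM3a, and 1.13, 0.44 and 2.04 TPM in MC38-LM3b, with no overlap between MC38-P and either derivative. The log2 fold change was -2.17 (SE 0.30) in both, with adjusted p = 0.000464 for MC38-LM3a and 0.000329 for MC38-LM3b.

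Prkcb, which encodes protein kinase C beta, rose. It was 3.97, 3.8 and 3.15 TPM in MC38-P, 6.66, 6.65 and 8.55 TPM in MC38-LM3a, and 11.74, 10.98 and 11.48 TPM in MC38-LM3b. The 3 groups did not overlap, and the log2 fold change was 0.83 (SE 0.12, adjusted p = 0.000711) in MC38-LM3a and 1.42 (adjusted p = 1.75e-05) in MC38-LM3b. Of the 11 tested genes of this list, 1 rose and 4 fell in MC38-LM3a, and 4 rose and 2 fell in MC38-LM3b. With the correction 3 rose and 5 fell in MC38-LM3a, and 3 rose and 6 fell in MC38-LM3b.

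Of the 9 tested inositol trisphosphate receptors and kinases, 1 rose in MC38-LM3a, 6 rose in MC38-LM3b and 0 fell. With the correction 6 rose in each derivative, and 1 fell in MC38-LM3b. Ip6k2, an inositol hexakisphosphate kinase, rose by 0.43 (adjusted p = 0.0115) in MC38-LM3a and by 0.61 (adjusted p = 0.00112) in MC38-LM3b.

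Of the other PI3K subunits and regulators, 7 were tested, and 0 rose and 1 fell in MC38-LM3a, while 5 rose and 0 fell in MC38-LM3b. With the correction 4 rose and 2 fell in MC38-LM3a, and 3 rose and 1 fell in MC38-LM3b. Pik3r5, a regulatory subunit of the p110γ kinase, fell by 0.51 in MC38-LM3a (adjusted p = 0.0402), a call that was lost without a filter on low values, with the libraries of these groups only, and without any 1 of MC38-P replicate 2, MC38-LM3a replicates 1 and 2 and the MC38-LM3b libraries. Pik3ip1, a membrane protein that inhibits PI3K, rose by 0.57 in MC38-LM3b (adjusted p = 0.0144), which was lost with libraries centred on their median, with quantile normalization, and without MC38-P replicate 2 or MC38-LM3b replicate 1 or 2. Among the 8 tested proteins that bind or act on PIP3 signals, 1 rose in MC38-LM3a, 3 rose in MC38-LM3b and 0 fell, and with the correction 2 and 3 rose and 0 fell. Plekha2, which binds phosphoinositides through its pleckstrin homology domains, rose by 0.31 in MC38-LM3a (adjusted p = 0.0164), but did not pass with the libraries of these groups only.

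The phosphatases were the longest list, with 23 tested genes, of which 1 rose and 1 fell in MC38-LM3a and 14 rose and 1 fell in MC38-LM3b. With the correction 10 rose and 2 fell in MC38-LM3a, and 11 rose and 2 fell in MC38-LM3b. As deposited, the gene that fell was the same in both, Inpp5a, which encodes a 5-phosphatase of inositol trisphosphate, the soluble product of phospholipase C. It was 38.6, 37.5 and 33.6 TPM in MC38-P, 24.6, 21.9 and 25.4 TPM in MC38-LM3a, and 24.5, 24.1 and 22.3 TPM in MC38-LM3b, with MC38-P above both derivatives. The log2 fold change was -0.59 (adjusted p = 0.000913) in MC38-LM3a and -0.61 (adjusted p = 0.000539) in MC38-LM3b. The largest rises were those of Mtmr14 in MC38-LM3a (0.38, adjusted p = 0.00905) and Mtm1 in MC38-LM3b (0.82, adjusted p = 0.000948), both of the myotubularin family of 3-phosphatases.

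Of the 11 phosphoinositide kinases, 2 rose in MC38-LM3a, 8 rose in MC38-LM3b and 0 fell. With the correction 6 rose and 1 fell in MC38-LM3a, and 7 rose and 0 fell in MC38-LM3b. Pip5k1c, which makes the substrate of phospholipase C and PI3K, rose by 0.43 (adjusted p = 0.0101) and 0.76 (adjusted p = 0.000253). Of the 11 tested genes for phosphatidylinositol supply, 0 rose and 1 fell in MC38-LM3a, and 5 rose and 1 fell in MC38-LM3b, and with the correction 3 and 2 rose and 1 fell in each. Isyna1, the inositol synthase, fell by 0.29 (adjusted p = 0.00992) and 0.24 (adjusted p = 0.0175), and the call in MC38-LM3b was lost without MC38-P replicate 1 or 2 or MC38-LM3b replicate 2 or 3. Cds2, which makes the CDP-diacylglycerol precursor, rose by 0.63 in MC38-LM3b (adjusted p = 0.00578).

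Between the derivatives, 0 of the 93 pathway genes passed by limma in either direction. At an unadjusted p under 0.05, 43 were higher in MC38-LM3b and 0 lower, beside 35.5% and 2.58% of all tested genes. With the correction 1 gene passed, Prkcb, which was higher in MC38-LM3b by 0.42 (adjusted p = 0.0313). Without MC38-LM3a replicate 3 and without the correction, 73 passed as higher in MC38-LM3b, in a setting where 52.2% of all genes did.

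The 5 tested genes whose pattern over the 9 libraries lay nearest to that of Plcg2 were Serpine2, Gpc6, Masp1, Col1a1 and Gli2. Likeness was the root mean square distance between log2(TPM + 1) profiles, each centred on its own mean, and it was 0.114 for Serpine2 and 0.122 for Gli2, beside a median of 0.807 over 11286 genes. Serpine2, a protease inhibitor, had mean levels of 35.5 TPM in MC38-P, 11.8 TPM in the first derivative and 10.99 TPM in the second. Gpc6, a glypican of the cell surface, had means of 3.87, 0.43 and 0.56 TPM in the same order. Masp1, a protease of the complement system, was at 8.53, 2.12 and 2.8 TPM, Col1a1, a chain of type I collagen, at 14.0, 4.07 and 4.30 TPM, and Gli2, a transcription factor of the Hedgehog pathway, at 5.47, 0.953 and 1.1 TPM. All were chosen by their likeness, so their lower level in the derivatives is a description.

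The 10 tested genes nearest to Plcg2 on chromosome 8, 5 on each side, were listed after the values of Plcg2 were known. Their log2 differences from MC38-P ran from -0.27 to 0.65 in MC38-LM3a, with 6 of 10 below 0, and from -0.42 to 0.84 in MC38-LM3b, with 3 of 10 below 0. The values of Plcg2, -1.63 and -1.52, lay outside both ranges. The medians of the neighbours were -0.03 and 0.16, beside 0.02 and 0.20 over the 619 tested genes of the chromosome. The adjacent gene Cmip was at 0.17 and 0.59 and Mphosph6 on the other side at -0.09 and -0.00. Inpp4b, on the same chromosome, differed in the opposite direction.

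**Figure D5:**
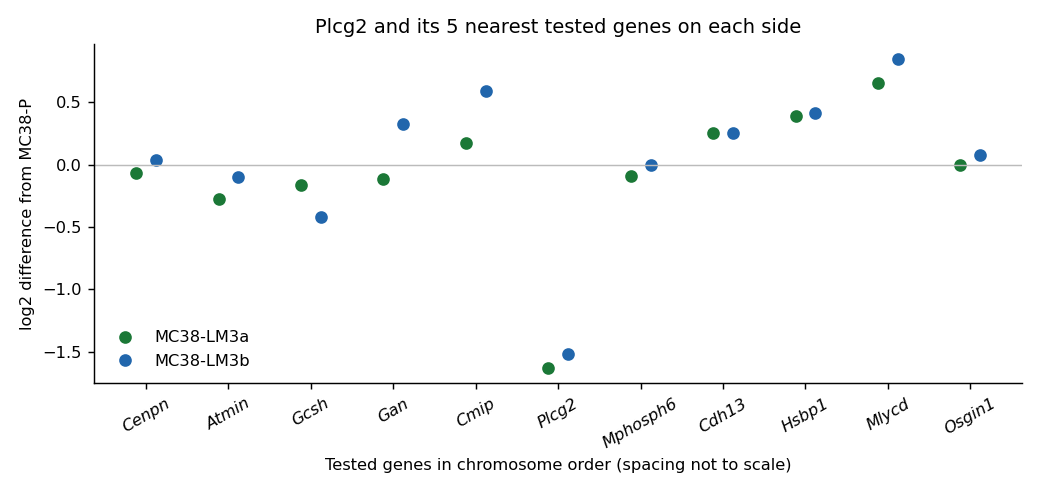
Log2 differences from MC38-P of Plcg2 and of the 5 tested genes on each side of it on chromosome 8, in order along the chromosome, for both derivatives. Plcg2 is at -1.63 and -1.52, and its neighbours lie between -0.42 and 0.84.

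Because Plcg2, Pik3cd and Inpp5d are known from leukocytes, marker genes of other cell types were read in the same libraries. In bulk RNA, fewer cells of a type and less RNA per cell cannot be told apart. Of 16 hematopoietic markers 11 were listed, and only Cd14 reached 1 TPM, with 10.29 to 16.03 TPM. The summed level of the list was 10.5 to 11.9 TPM in MC38-P, 13.7 to 16.5 TPM in MC38-LM3a and 15.2 to 16.5 TPM in MC38-LM3b, and nearly all of it was Cd14. The defining markers Ptprc, Csf1r and Itgam were at most 0.09, 0.14 and 0.05 TPM in any library. The part of such cells in the level of Plcg2 was not tested.

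None of the 5 listed hepatocyte markers reached 1 TPM, and their sum was at most 0.89 TPM. Of 7 listed endothelial markers only Cdh5 did, at 0.45 to 1.39 TPM. Of 7 listed stellate or fibroblast markers, 3 reached 1 TPM, led by Col1a1 with 10.36 to 15.99 TPM in MC38-P and 3.52 to 5.03 TPM in MC38-LM3a. The sum of this list was 13.3 to 20.1 TPM in MC38-P, 6.15 to 8.47 TPM in MC38-LM3a and 9.22 to 9.47 TPM in MC38-LM3b, and most of the difference was Col1a1. Pdgfrb went the other way, at means of 1.54, 2.13 and 3.66 TPM, and rose in MC38-LM3b by 0.88 on the log2 scale (adjusted p = 0.000695), and Dcn was at most 0.13 TPM. The part of these cells was not tested either.

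The labelled epithelial type was only partly seen in the markers. Of 12 listed intestinal epithelial markers 7 reached 1 TPM, led by Krt8 with 1047.28 to 1205.6 TPM in MC38-P and 743.78 to 851.15 TPM in the derivatives. Of the 6 that were tested, 4 fell and 2 rose in MC38-LM3a, and 4 fell and 0 rose in MC38-LM3b. Epcam was 4.93 to 6.31 TPM in MC38-P and 1.87 to 2.40 TPM in the derivatives, whereas Krt19 rose in MC38-LM3a, from a mean of 113.8 to 149.0 TPM (adjusted p = 0.00358). Cdh1, Vil1 and Muc2 were at most 0.08, 0.13 and 0.07 TPM, so these defining genes were nearly absent in all 3 lines. Of the marker genes, those named beside the highest of each list were chosen after their values were seen.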

How the data were processed

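Poly(A) RNA of the parental line and both derivatives was sequenced on the DNBSEQ platform, with 3 libraries per group. The authors deposited TPM for 16399 genes, rounded to 2 decimals and summing to 1000000 per library. The submitters' processing notes name HISAT and the build GRCm39, and the counting tool is not given in the sources used here. The count model that the authors name was not used, as no counts were at hand, and TPM were tested with limma.

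Groups came from the sample labels. In R 4.3.3 with limma 3.58.1, log2(TPM + 1) of the 11287 genes that reached 1 TPM in 3 or more libraries was fitted with 1 mean per group over all 9 libraries, a variance trend and adjustment by Benjamini and Hochberg. A gene passed at an adjusted p under 0.05. Corrected values are levels on the log2 scale with an offset removed. The offset came from a loess fit of span 0.3 on transcript length and GC content for each library (GENCODE M21 transcripts, 98.3% of tested genes). Start regions are from RefSeq, build GRCm38.p6.

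The members and lists were chosen with earlier results of these data known. Named were all members, the largest rise and fall that passed in each pathway list and derivative, pathway genes with an absolute log2 fold change above 1, the 5 genes nearest to Plcg2, and the highest gene of each marker list. Any further pathway or marker gene was picked with its values known. On simulated data with 11287 genes, 87 of 100 genes changed by a log2 of 1 in MC38-LM3a and 88 of 100 in MC38-LM3b were recovered, and 99 of 100 for a log2 of 2 in each, with 11 false calls each. The simulated noise was independent between genes, without the deviation along transcript length seen in these libraries. These rates may therefore not hold for the real data. Alternatives changed the pseudocount, filter, scaling, libraries and replicate block. 1 gene that this rule names is not reported here. Data of the study other than these libraries were not analysed here.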

Additional observations from a re-analysis of the deposited data

How the results depend on the processing

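The files hold TPM without counts, so count models were not run and depth limits cannot be given. The log2 difference of Plcg2 from MC38-P kept its direction in every alternative. For MC38-LM3a it was -1.81 with a pseudocount of 0.1, -1.77 without replicate 3 of MC38-P and of MC38-LM3a together, and -1.70 to -1.56 with 1 library left out. For MC38-LM3b it was -1.68 with that pseudocount, -1.74 with libraries centred on their median, -1.76 with quantile normalization, and -1.74 with the GC and length offsets, alone or with the replicate block. The offsets without both of these libraries, chosen after seeing the data, gave -1.73.

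For members in MC38-LM3a, the count passing as higher was 1. It was 0 without a filter, with the libraries of both groups only and with the replicate block, 4 with centring, with quantile normalization and with the offsets without both libraries, and 5 with the offsets, alone or with the block. Of all tested genes, 9.61% passed as higher without a filter, 9.24% with both groups only and 9.75% with the block. That share was 19.8% with centring and 21.5% with quantile normalization. It was 27% with the offsets, 25.3% with the offsets and the block, and 29% with the offsets without both libraries. With 1 library left out the count was 0 to 1, beside 10% to 14.2% of all genes. It was 0 without MC38-P replicate 2 or 3, MC38-LM3a replicate 1 or 3, or any MC38-LM3b library. The count passing as lower was 1. It was 2 with centring, quantile normalization, the offsets, the offsets with the block and the offsets without both libraries, and 3 without both libraries alone. Of all tested genes, 20.1% passed as lower with centring, 20.5% with quantile normalization and 45.2% without both libraries. That share was 25.3% with the offsets, 23.8% with the offsets and the block, and 27.9% with the offsets without both libraries. With 1 library left out the count was 1 to 2. It was 2 without replicate 3 of MC38-P or MC38-LM3a, where 16.9% and 23.2% of all genes fell. In MC38-LM3b it was 2, not 1, with centring, quantile normalization, offsets, alone or with the block, and without both libraries, with or without offsets. There 19% to 30.9% of all genes fell.

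For pathway genes in MC38-LM3a, 9 rose. This became 23 with centring, 26 with quantile normalization, 40 with the offsets, 35 with the offsets and the block, 33 with the offsets without both libraries and 5 with the libraries of both groups only. The shares of all tested genes that rose were, in the same order, 19.8%, 21.5%, 27%, 25.3%, 29% and 9.24%. The 10 that fell became 40 without both libraries, where 45.2% of all genes fell, and 4 to 16 with 1 library left out (6 and 4 without MC38-P replicate 1 and 2, and 5, 4 and 16 without MC38-LM3a replicate 1, 2 and 3). Without MC38-LM3a replicate 3, 23.2% of all genes fell, and without the others named 8.57% to 9.73% did. In MC38-LM3b, the 52 that rose became 30 to 63 with 1 library left out, with 34 without MC38-P replicate 3 and 30 without MC38-LM3b replicate 1. In these settings 26.1% and 24.5% of all genes rose. Without MC38-LM3a replicate 3, which gave 63, it was 45.1%. The 5 that fell became 9 without a filter, 12 with centring and with quantile normalization, 14 with the offsets, alone or with the block, 8 without both libraries, 13 with the offsets without both libraries, and 2 to 6 with 1 library left out (2 without MC38-P replicate 1 or 2, or MC38-LM3b replicate 2 or 3). Of all tested genes, 8.42% fell without a filter, 26.4% with centring and 24.5% with quantile normalization. With the offsets 28.9% did, 27.3% with the offsets and the block, and 19% without both libraries.

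Between the derivatives, 0 members and 0 pathway genes were higher, which became 0 to 7 and 0 to 73 with 1 library left out. The 7 and 73 were without MC38-LM3a replicate 3, where 52.2% of all genes were higher. Without both libraries these were 7 and 82, beside 65% of all genes. With the offsets 1 pathway gene (Prkcb) was higher, with the offsets and the block 0 were, and with the offsets without both libraries 6 were higher and 8 lower. The cause of these changes was not tested. None of the called pathway genes named by the rule changed direction in these alternatives. With the block, the calls of Pik3cd, Pik3r5 and Plekha2 in MC38-LM3a and of Pik3r1 in MC38-LM3b were lost. With the block and the offsets, that of Pik3ip1 in MC38-LM3b was lost. The deviations of libraries with the same replicate number had correlations of -0.66 to 0.07 in 9 pairs, with 0 above 0.1. Those with MC38-LM3b were at 0.035 to 0.075, and pairs of unlike number with it at -0.063 to 0.007. These values do not settle whether the numbers pair the libraries. With the replicate block alone, 6 pathway genes rose and 7 fell in MC38-LM3a, and 36 rose and 4 fell in MC38-LM3b.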
